A study of Arabidopsis with 6 samples.

Results

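The nuclear RNA polymerase subunit genes described here are the 8 genes with the symbols NRPA1, NRPA2, NRPC1, NRPC2, NRPB12, NRPB6A, NRPB6B and NRPD7, out of 13286 genes with a probe set of their own. They were chosen by symbol, with their difference between apum23 and wild type on these arrays already known. The members' own differences are therefore a description, without p-values, and support nothing by themselves. Each of the 8 had 1 probe set that is paired with no other gene. The arrays compared aerial parts of wild-type Arabidopsis thaliana of accession Col-3 with those of apum23 mutants in the same accession. Both were grown untreated on soil for 21 days at 22 °C with 8 h of light and 16 h of darkness, and there were 3 Affymetrix ATH1 arrays per genotype. The series design names the mutant allele as apum23-1, whereas the descriptions of apum23 replicates 2 and 3 read apum23-2 and apum23-3, and the sources used here do not say what these endings mean. How many plants went into a sample is not given either, so the spread between arrays may be partly technical.

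Plant nuclei transcribe their genes with RNA polymerases I to V. Polymerase I makes the large ribosomal RNA precursor, polymerase II makes messenger RNA, and polymerase III makes transfer RNA and 5S ribosomal RNA. The plant-specific polymerases IV and V act in RNA-directed DNA methylation. In each enzyme the largest and second-largest subunits together form the catalytic centre. Polymerases I, II and III each have their own pair, whereas polymerases IV and V share their second-largest subunit, and some small subunits are common to several polymerases. APUM23 is a nucleolar RNA-binding protein of the Pumilio family that takes part in the processing of ribosomal RNA precursors.

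Values are deposited log2 probe set intensities, so a difference of 1 is a doubling. Probe sets bind with different efficiency, so the intensities of different genes have no common scale. Where one gene's value is subtracted from another's within an array, only the change of that difference between the genotypes can be read. The array medians ranged from 5.34 to 6.10 and the lower quartiles from 3.41 to 3.84. Wild-type replicate 1 had the lowest median, and its spiked-in hybridization controls averaged 5.51 against 9.76 to 10.06 on the other 5 arrays. No probe set is named here for APUM23, so the mutated gene could not be used to check the genotype labels. Of 8 leaf markers 2 were measured, and both were bright: RCA, which encodes Rubisco activase, at 13.56 to 13.85 and PRK, for phosphoribulokinase of the Calvin cycle, at 12.09 to 12.87. RCA averaged 13.75 in both genotypes, and PRK differed by -0.41 (limma adjusted p = 0.4034). PRK was called lower after quantile normalization (-0.44, limma adjusted p = 0.0172) and after median centring (-0.58, limma adjusted p = 0.016), and its part in the results below was not tested. The root hair expansin genes EXPA7 (3.43 to 3.92) and EXPA18 (3.88 to 4.36) lay near or just above the lower quartiles, with differences of 0.01 and 0.26 and no call on any of these scales.

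The largest and second-largest subunits of polymerase I differed most among the 8. NRPA1, which encodes the largest subunit of polymerase I, was at 5.48, 6.44 and 6.36 on wild-type replicates 1 to 3 and at 7.03, 7.22 and 7.48 on apum23 replicates 1 to 3. All 3 apum23 values lay above all 3 wild-type values, and the lowest value was that of wild-type replicate 1. The means were 6.09 ± 0.53 and 7.24 ± 0.23 (SD, n = 3), a log2 difference of 1.15 or 2.22-fold. NRPA2, which encodes the second-largest subunit, was at 6.77, 7.50 and 7.59 in wild type and at 8.42, 8.37 and 8.61 in apum23. Here too the genotypes did not overlap, with 0.78 between the highest wild-type and the lowest apum23 array. The means of NRPA2 were 7.29 ± 0.45 and 8.47 ± 0.13 (SD, n = 3), a log2 difference of 1.18 or 2.27-fold. NRPA2 minus NRPA1 within an array was 1.20 ± 0.12 in wild type and 1.23 ± 0.14 in apum23 (log2, SD, n = 3). These differ by 0.03, less than either SD. In whole aerial parts, more RNA per cell and more cells that express a gene cannot be told apart.

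The matching genes of polymerase III were higher by less. NRPC1, for the largest subunit of polymerase III, was at 4.46, 4.96 and 5.13 in wild type and at 5.51, 5.38 and 5.96 in apum23. The genotypes did not overlap, and the values of NRPC1 lay below the array medians on all 6 arrays. The log2 difference of NRPC1 was 0.77 or 1.70-fold, from 4.85 ± 0.35 to 5.62 ± 0.31 (SD, n = 3). NRPC2, for the second-largest subunit, was at 5.80, 6.31 and 6.49 in wild type and at 6.71, 6.85 and 7.19 in apum23. Again every apum23 array was above every wild-type array. The log2 difference of NRPC2 was 0.71 or 1.64-fold, from 6.20 ± 0.36 to 6.92 ± 0.25 (SD, n = 3).

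**Figure D1:**
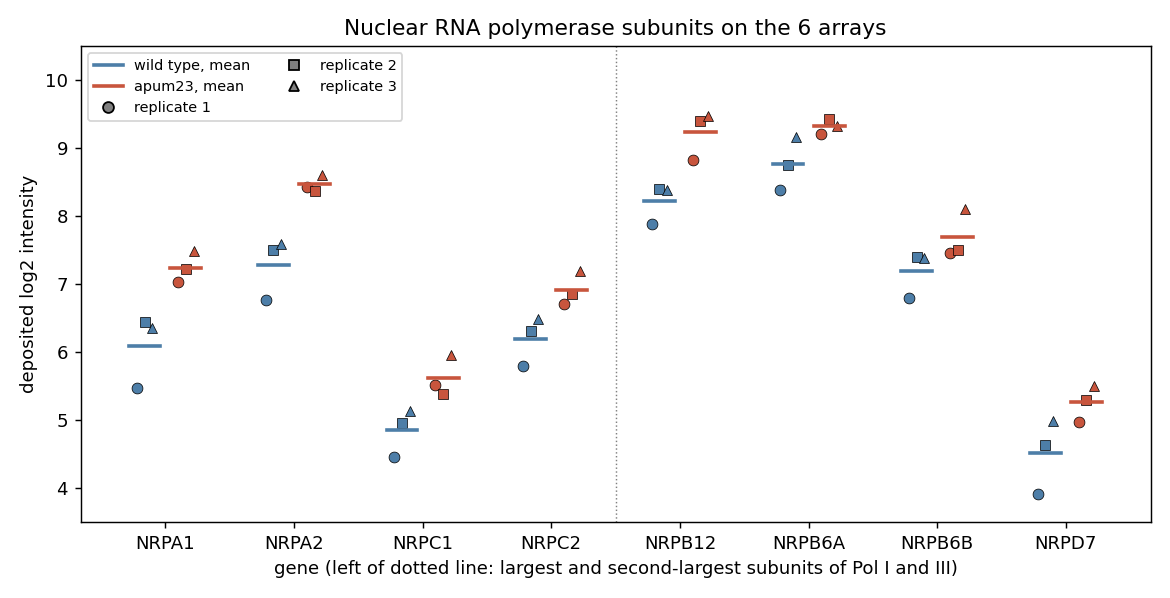
Deposited log2 intensity (vertical axis) of the 8 subunit genes on the 3 wild-type and 3 apum23 arrays, with 1 symbol per replicate and a bar at each group's mean. For 7 genes every apum23 array lies above every wild-type array, and for NRPD7 the groups touch at 4.98 and 4.99.

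Among the small subunits, NRPB12 stood closest to the polymerase I genes. NRPB12 encodes the twelfth subunit, a small protein shared between the nuclear polymerases. It was at 7.88, 8.40 and 8.39 in wild type and at 8.83, 9.40 and 9.47 in apum23. The groups did not overlap, and apum23 replicate 1 was the lowest of the mutant arrays. The means of NRPB12 were 8.22 ± 0.30 and 9.23 ± 0.35 (SD, n = 3), a log2 difference of 1.01 or 2.02-fold. Taking apum23 replicate 1 alone against wild type, the NRPB12 difference was 0.61.

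NRPB6A and NRPB6B are paralogs that encode the sixth subunit, which is also shared between polymerases, and they had the smallest differences of the 8. NRPB6A was at 8.38, 8.75 and 9.16 in wild type and at 9.21, 9.43 and 9.33 in apum23, a log2 difference of 0.56. The highest wild-type array came within 0.04 of the lowest apum23 array. NRPB6B was at 6.79, 7.40 and 7.38 in wild type and at 7.45, 7.50 and 8.11 in apum23, a log2 difference of 0.50. Its gap between the genotypes was 0.05, and apum23 replicate 3 was well above the other mutant arrays. NRPB6A minus NRPB6B within an array was 1.57 ± 0.22 in wild type and 1.63 ± 0.37 in apum23 (log2, SD, n = 3), which differ by 0.06, less than either SD. Their probe sets are each paired with 1 gene, and whether RNA of one paralog also binds the other's probe set was not tested.

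NRPD7, a gene for the seventh subunit of polymerase IV, was the only 1 of the 8 whose groups overlapped on the deposited values. It was at 3.92, 4.63 and 4.99 in wild type and at 4.98, 5.30 and 5.50 in apum23. The overlap was 0.01, between wild-type replicate 3 and apum23 replicate 1. Wild-type replicate 1 was 0.71 below the next array and close to the lower quartiles, where intensities are near background and the size of a log2 difference is uncertain. The means of NRPD7 were 4.51 ± 0.54 and 5.26 ± 0.26 (SD, n = 3), a log2 difference of 0.75 or 1.68-fold.

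In the limma fit across all 22746 probe sets, 6 of the 8 genes were called higher in apum23 at an adjusted p under 0.05 and 0 lower, where 5.31% of all probe sets were called higher and 1.38% lower. NRPB6A and NRPB6B were not called. As the contrast was known when the genes were chosen, nothing is read from that count. The median difference of the 8 genes was 0.76, beside 0.08 over all probe sets. The fit gave every probe set the same standard error of 0.22, so that a call amounted to a log2 difference of at least 0.66. After quantile normalization, which puts the 6 arrays on 1 distribution, all 8 were called higher (9.69% of all probe sets), with differences from 0.40 for NRPB6B to 1.10 for NRPA2. On that scale, and with each array centred on its median, the genotypes did not overlap for any of the 8, including NRPD7. Over all probe sets the share with every apum23 array above every wild-type array was 15.9% and 11.6% on these 2 scales. On the deposited values 7 of the 8 did not overlap, where the share over all probe sets was 11.0%.

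NRPA1, NRPA2 and NRPB12 were called with each of the 6 arrays left out in turn. The other calls depended on which array was left out. Wild-type replicate 1, the array with the lowest median, was the lowest of the 6 for all 8 genes, by 0.37 for NRPB6A to 0.88 for NRPA1. Without replicate 1 or 2 of wild type, or without replicate 1 or 3 of apum23, these 3 genes were the only calls among the 8. Without apum23 replicate 2 there were 4, with NRPC1 added, and without wild-type replicate 3 there were 7, all but NRPB6B. The calls over all 22746 probe sets moved too, from 561 higher without apum23 replicate 3 to 1699 without wild-type replicate 3. The smallest log2 difference called ran from 0.62 without wild-type replicate 1 to 0.84 without wild-type replicate 2. Over these fits the difference of NRPC1 ran from 0.57 to 0.91, that of NRPC2 from 0.52 to 0.86 and that of NRPD7 from 0.45 to 0.99. The differences of NRPA1 and NRPA2 ran from 0.84 to 1.32 and from 0.92 to 1.33, and that of NRPB12 from 0.84 to 1.21. NRPB6A ran from 0.37 to 0.76 and NRPB6B from 0.29 to 0.62, with NRPB6A at 0.37 and NRPB6B at 0.30 without wild-type replicate 1, and NRPB6B at 0.29 without apum23 replicate 3.

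**Figure D2:**
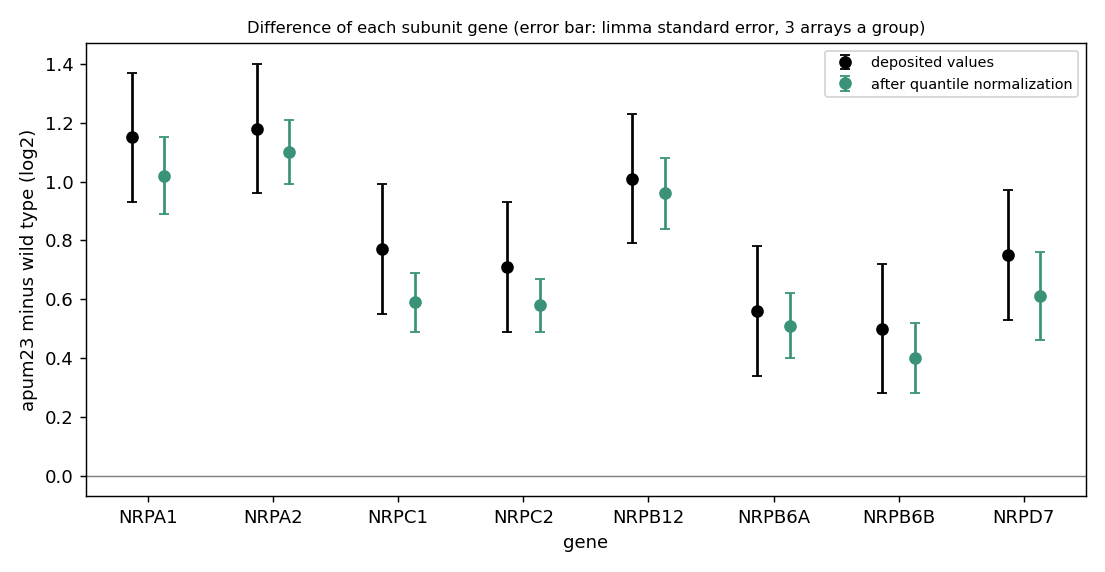
Difference between apum23 and wild type (log2, vertical axis) of the 8 genes on the deposited values and after quantile normalization, with limma standard errors. NRPA1, NRPA2 and NRPB12 lie above 1 on the deposited values, and NRPB6A and NRPB6B are lowest at 0.56 and 0.50.

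The large subunits of polymerases I and III were set against the 4 small subunits within each array, where an overall shift of the array drops out. The mean of NRPA1, NRPA2, NRPC1 and NRPC2 minus the mean of NRPB12, NRPB6A, NRPB6B and NRPD7 was -1.11, -0.99 and -1.08 in wild type. In apum23 it was -0.70, -0.95 and -0.79. The large subunits thus gained on the small ones by 0.25 (log2), with wild type at -1.06 ± 0.06 and apum23 at -0.82 ± 0.13 (SD, n = 3), and apum23 replicate 2 came within 0.04 of a wild-type array. The single genes did not sort by size of subunit, since NRPB12 (1.01) was above NRPC1 (0.77) and NRPC2 (0.71). NRPD7 (0.75) lay between the 2 polymerase III genes. The small-subunit mean differed by 0.70 between the genotypes, close to NRPC1 and NRPC2. After quantile normalization that mean differed by 0.62, above NRPC1 (0.59) and NRPC2 (0.58). The gain thus came mostly from NRPA1 and NRPA2.

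A wider gap lay between polymerases I and III. The mean of NRPA1 and NRPA2 minus the mean of NRPC1 and NRPC2 was 1.00, 1.33 and 1.16 in wild type, against 1.61, 1.68 and 1.47 in apum23. Every apum23 array was above every wild-type array, and the difference was 0.42 on the deposited values and 0.47 after quantile normalization. Centred on the array median, the mean of the 4 large subunits was nearly level across mutant arrays, at 1.21, 1.20 and 1.22, while in wild type it was 0.29, 0.53 and 0.46.

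**Figure D3:**
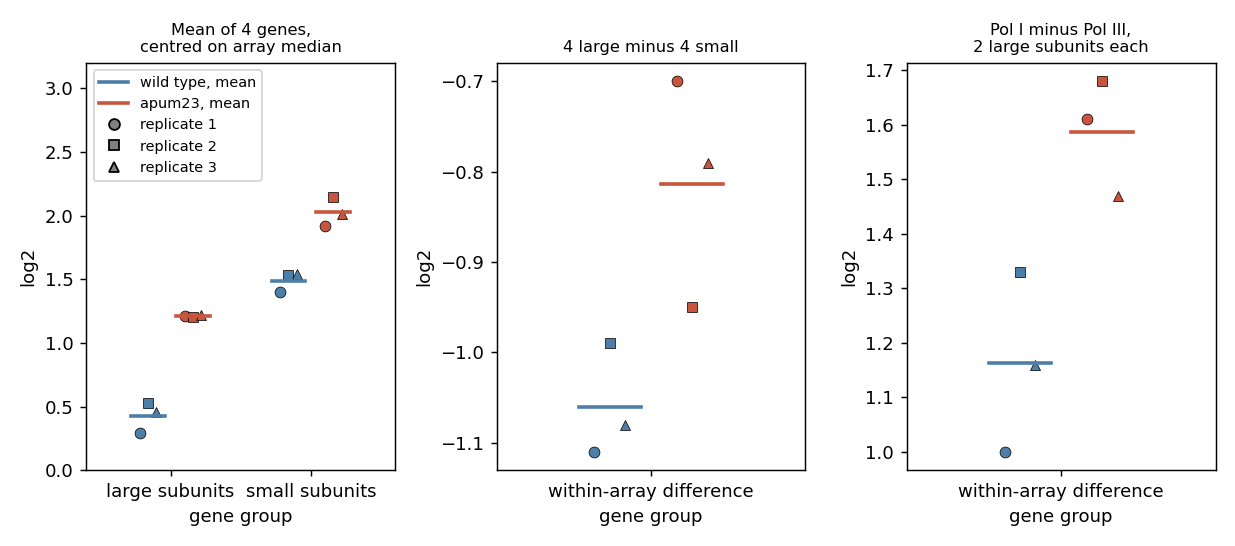
Left, mean of the 4 large and the 4 small subunit genes on each array, centred on the array median (log2). Middle and right, the within-array differences between large and small subunits and between polymerase I and III large subunits, with 1 symbol per replicate and bars at group means; the polymerase I minus III values do not overlap between genotypes (1.00 to 1.33 and 1.47 to 1.68).

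Other genes of the transcription machinery came from lists written by locus from background knowledge, with earlier results of these data known. The adjusted p-values of these loci are therefore no independent support for the differences of the 8 genes. Many of these loci carry no symbol in the gene tables used here, and such loci are given by locus only, without a role of their own. Of 17 loci on the list of other polymerase I and III subunits 9 were measured. In limma, with Benjamini-Hochberg adjustment over all probe sets, 4 of them rose, 5 did not pass and 0 fell. Over all probe sets 5.31% were called higher and 1.38% lower. The median difference was 0.60 beside 0.08 over all probe sets. AT3G25940 rose from 5.60, 6.07 and 6.32 in wild type to 7.35, 7.74 and 7.73 in apum23. This was a log2 difference of 1.61 or 3.06-fold (limma adjusted p = 1.735e-10), more than for any of the 8 subunit genes above. AT5G09380 rose by 1.47 (limma adjusted p = 1.194e-08), with 4.57, 4.84 and 5.15 in wild type, against 6.04, 6.38 and 6.55 in apum23. AT1G75670 rose by 1.42 and AT3G13940 by 1.28 (limma adjusted p = 4.687e-08 and 1.196e-06). In all 4 the genotypes were separate, and all 4 were called with each array left out in turn.

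The 5 loci of that list that did not pass had smaller differences, from 0.19 for AT5G62950 to 0.60 for AT5G23710. After quantile normalization, and also with the replicate number as a block, 7 of the 9 were called higher. Of all 22746 probe sets, 2205 (9.69%) were called higher after quantile normalization and 1949 with the block. The 3 added by quantile normalization were AT5G23710 (0.46), AT5G49530 (0.42) and AT1G06790 (0.37), with limma adjusted p from 0.0111 to 0.0211. AT3G49000 and AT5G62950 stayed uncalled there, at 0.04 and 0.05. Those 5 loci were named after their values were seen.

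The list of other subunits of polymerases II, IV and V, which also holds subunits shared between polymerases, showed no call on the deposited values of all 6 arrays. Of 26 loci on the list 6 were measured, with 0 rising and 0 falling and a median of 0.10. Over all probe sets 5.31% were called higher and 1.38% lower, so nothing is read from 0 calls among 6 loci. The median includes NRPB9A, AT1G53690 and AT1G61700 (2.90 to 3.44). These lay near or below the lower quartiles, where the size of a log2 difference is uncertain. The largest difference was that of NRPB7, for the seventh subunit of polymerase II, at 6.06, 7.23 and 7.46 in wild type, against 7.54, 7.20 and 7.45 in apum23. Only wild-type replicate 1 stood apart there. The difference of NRPB7 was 0.48 (limma adjusted p = 0.2497), but 0.05 without wild-type replicate 1, and it was called without wild-type replicate 3 (0.75, limma adjusted p = 0.0276). NRPE7, for the seventh subunit of polymerase V, was at 0.19 and NRPB9B, for a ninth subunit, at 0.39 (limma adjusted p = 0.8846 and 0.4445). NRPB9A, the paralog of NRPB9B, lay near the lower quartiles on every array (3.64 to 3.93) and differed by -0.07. AT1G53690 was at 3.39 ± 0.15 in wild type and 3.06 ± 0.41 in apum23 (SD, n = 3), below the lower quartiles, and was called lower after quantile normalization (-0.42, limma adjusted p = 0.0259), where 10.0% of all probe sets were called lower. Apart from NRPB7, these genes were named after their values were seen. Whether the polymerase I and III list differed from the list of polymerase II, IV, V and shared subunits was not tested.

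**Figure D4:**
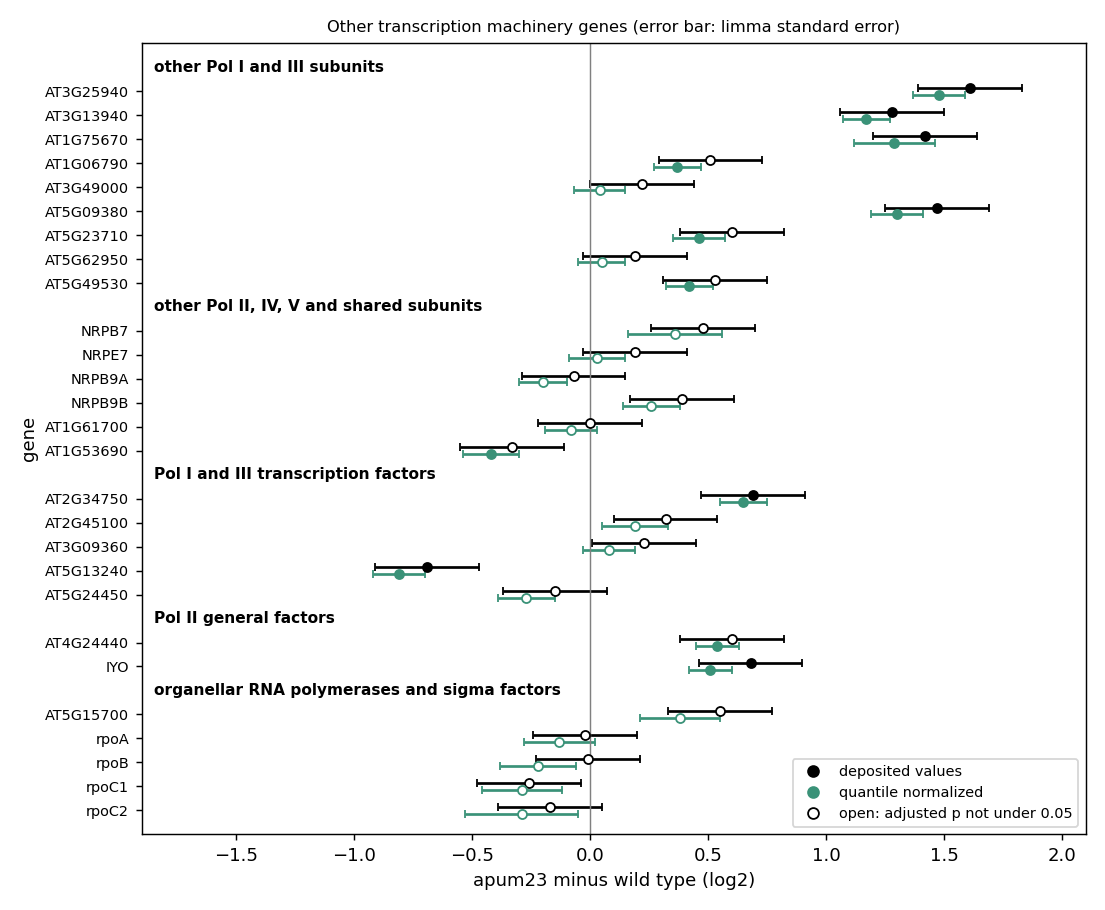
Difference between apum23 and wild type (log2, horizontal axis) of the measured genes on 5 lists of transcription machinery, on the deposited values and after quantile normalization, with limma standard errors and open symbols where the adjusted p was not under 0.05. The 4 loci above 1 all belong to the list of other polymerase I and III subunits.

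Of 12 loci on the list of transcription factors for polymerases I and III, 5 were measured, and 1 rose and 1 fell. The shares of all probe sets were 5.31% called higher and 1.38% called lower. AT2G34750 rose from 8.41, 8.65 and 8.83 to 9.23, 9.26 and 9.48, a difference of 0.69 (limma adjusted p = 0.0359). AT5G13240 fell, from 7.39, 7.81 and 7.78 in wild type to 6.77, 7.08 and 7.05 in apum23. Its difference was -0.69 on the deposited values and -0.81 after quantile normalization (limma adjusted p = 0.0356 and 0.000499). It was the only called locus on the lists of transcription machinery with a lower level in apum23 on the deposited values. Both were close to the smallest difference called. AT2G34750 was called in 1 of the 6 fits with an array left out, the one without wild-type replicate 3, and AT5G13240 in 1, the one without wild-type replicate 1, with limma adjusted p up to 0.2125 and 0.266.

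Of 8 loci on the list of polymerase II factors, 2 were measured. IYO (MINIYO), known in Arabidopsis for a role in polymerase II transcription and the onset of cell differentiation, rose from 4.36, 4.85 and 4.96 to 5.29, 5.34 and 5.58. The difference of IYO was 0.68 (limma adjusted p = 0.0398), and it was called in 1 of the 6 fits with an array left out, the one without wild-type replicate 3. AT4G24440 had a difference of 0.60 (limma adjusted p = 0.09453) and was called after quantile normalization (0.54, limma adjusted p = 0.00199). None of the 11 loci on the list for RNA-directed DNA methylation had a probe set named here, so that pathway of polymerases IV and V is not analysed here.

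The array also carries control probe sets for products of polymerases I and III. The 25S ribosomal RNA probe set was at 3.84, 3.41 and 3.99 in wild type and at 5.85, 4.22 and 5.91 in apum23. All mutant arrays were above all wild-type arrays, with apum23 replicate 2 close to wild type. The 5S ribosomal RNA probe set was at 2.83, 3.04 and 2.79 in wild type and at 2.70, 2.71 and 2.90 in apum23, and the groups overlapped. Labelling was primed with oligo(dT), which captures RNA without a poly(A) tail poorly, and the 5S values and the wild-type 25S values lay near or below the lower quartiles. These probe sets therefore do not measure how much of either RNA the plants contained. The 3′ minus 5′ difference of the actin control, a sign of RNA quality, was 1.59 ± 0.07 in wild type and 1.42 ± 0.08 in apum23 (log2, SD, n = 3), and its part in these results was not tested.

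The genes most like the mean of NRPA1, NRPA2, NRPC1 and NRPC2 were sought among 5898 genes brighter than the median probe set, by Pearson correlation over the 6 arrays after centring each array on its median. The top 5 were AT4G04670 (r = 0.998), AT2G34357 (0.9971), AT2G31725 (0.997), AT4G10450 (0.9967) and AT3G06610 (0.9962). AT2G34357 had the widest difference of these, from 5.77, 6.49 and 6.53 in wild type to 7.48, 7.53 and 7.98 in apum23, and AT3G06610 the narrowest, at 0.60 on the log2 scale. The 6 arrays form 2 groups and share their scaling, so these correlations cannot be told apart from the genotype difference and are a description only.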

How the data were processed

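Transcript levels were measured on 6 ATH1 arrays. The authors deposited log2 intensities, 1 per probe set and array. The submitters' processing notes list RMA and limma without versions. The values were used as deposited. Array medians differ, so the deposited probe set values do not share 1 distribution across these arrays. Whether a quantile step was done at an earlier stage was not checked. The number of arrays limits the precision.

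From the 22810 rows, 64 control probe sets were left out. The probe table pairs 13513 probe sets with 1 gene, 503 with several and 8730 with none. RefSeq's gene table (assembly TAIR10.1) held 13436 of the 1-gene probe sets, for 13286 genes, and the brightest stood for a gene. The 4 plastid-encoded polymerase genes were matched by symbol.

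The genotypes were compared by lmFit and eBayes of limma 3.58.1 (R 4.3.3), two-sided and without a block, with Benjamini-Hochberg adjustment over 22746 probe sets. The fit was tested on simulated data. The members and the 9 lists were chosen with earlier results of these data known. Named genes were the 8 members, up to 6 called genes of each list or else the one with the largest difference, and the 5 genes most like the large subunits. Same-numbered arrays' deviations correlated at -0.2873, 0.1079 and 0.1590, so the numbers were not taken as pairs. Alternatives were quantile normalization, median centring, leaving out the dimmest 40% of probe sets, the replicate block, each array left out, and apum23 replicate 1 alone.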

Additional observations from a re-analysis of the deposited data

How the results depend on the processing

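No difference of the 8 subunit genes changed sign in any setting run. With each array left out, sign could not change for the 7 genes whose groups do not overlap, so this does not test it. The cause was not tested for the changes below. Against 1522 called probe sets there were 4481 after quantile normalization, 2997 with median centring, 2604 with the replicate block, 852 to 1842 with each array left out, 253 with apum23 replicate 1 alone against wild type, and 3717 under quantile normalization without wild-type replicate 1, which was chosen after seeing the data. Of the 8 genes 6 were called, 8 after quantile normalization, 7 with the replicate block, 3 to 7 with each array left out, and 0 with apum23 replicate 1 alone, where a log2 difference of 1.19 was the smallest called and this single array is taken to vary as the wild-type arrays do. At 7, quantile normalization without wild-type replicate 1 left out only NRPB6B. The gain of large over small subunits was 0.25, 0.20 after quantile normalization, 0.19 to 0.32 with each array left out and 0.36 with apum23 replicate 1 alone. The block added NRPB6A, AT4G24440 and the 3 polymerase I and III list loci that quantile normalization also added. Without the dimmest 40% of probe sets the 6 genes stayed called, but AT2G34750, AT5G13240 and IYO did not. No member had several probe sets, so averaging probe sets was not run.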

Other observations

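Organelles use other RNA polymerases than the nucleus, and 5 of 13 loci on the list for them were measured, with 0 called in either direction. As 5.31% of all probe sets were called higher and 1.38% lower, nothing is read from 0 calls among 5 loci. The plastid-encoded subunit genes rpoA, rpoB, rpoC1 and rpoC2 belong to the bacterial-type polymerase of chloroplasts. rpoA was at 11.75, 12.05 and 11.62 in wild type and at 11.57, 11.77 and 12.01 in apum23, and the groups overlapped. Of the 4 plastid genes rpoC1 had the largest difference on the deposited values, with 9.68, 10.02 and 9.48 in wild type, against 9.33, 9.45 and 9.63 in apum23, and these groups overlapped too. AT5G15700, on the same list, differed by 0.55 (limma adjusted p = 0.1416) and by 0.38 after quantile normalization (limma adjusted p = 0.1504). No call was made for these 5 with any array left out.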
